A study of Homo sapiens with 4 samples.

Results

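Broad peaks of RNA polymerase II (Pol II), stretches of 5000 bp or more called as a single peak, were described in U2OS cells, a human osteosarcoma line. They were selected on width: all peaks of chromosomes 1 to 22 and X whose end minus start was at least 5000 bp, 600 of 62732 peaks in all. NKAP knockdown (NKAP KD) cells had 150 broad peaks among 26387 and control cells 450 among 36345. The NKAP KD cells carried siRNA against NKAP and the control cells the siRNA named NC, each delivered with Lipofectamine RNAiMAX for 48 h, and both were fixed in 1% formaldehyde for 10 min. Each condition had 1 ChIP library made with a Pol II antibody and 1 input library, 4 samples in all, and the input libraries were not analysed here. With 1 ChIP library per condition no difference between the cells could be set against a replicate, and none was tested.

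Pol II makes messenger RNA and many noncoding RNAs. It loads at the gene start, often pauses just downstream, moves through the gene and is released past the end, so a long unbroken peak usually marks a short gene transcribed by many polymerases or the heavily loaded part of a longer one. NKAP, found in the nucleus, binds RNA, has a role in splicing and represses Notch target genes together with other corepressors. Neither library had a broad peak at the NKAP gene itself, where 1 narrow peak in each list covered 466 bp in NKAP KD cells and 412 bp in control cells. Since siRNAs destroy transcripts, these values say nothing of how well the knockdown worked.

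Part of the broad peaks held a gene start, and 5 promoters are shown as examples, with the start under a broad peak in both lists (EEF1A1, CCN2), in the NKAP KD list (MT2A) or in the control list (ACTG1, THBS1). The sequences are from RefSeq (GRCh38.p14) and run from 250 bases before the start to 50 after it, on the strand of the gene. EEF1A1 is at chr6:73520983-73521282 on the minus strand, CCN2 at chr6:131951323-131951622 on the minus strand, MT2A at chr16:56608334-56608633 on the plus strand, ACTG1 at chr17:81512750-81513049 on the minus strand and THBS1 at chr15:39580829-39581128 on the plus strand. Capitals mark matches, on either strand, to TATAAA (the TATA box), GGGCGG (the GC box), CCAAT (the CCAAT box), TGACTCA (the AP-1 site) and the CArG box, the site of serum response factor.
EEF1A1: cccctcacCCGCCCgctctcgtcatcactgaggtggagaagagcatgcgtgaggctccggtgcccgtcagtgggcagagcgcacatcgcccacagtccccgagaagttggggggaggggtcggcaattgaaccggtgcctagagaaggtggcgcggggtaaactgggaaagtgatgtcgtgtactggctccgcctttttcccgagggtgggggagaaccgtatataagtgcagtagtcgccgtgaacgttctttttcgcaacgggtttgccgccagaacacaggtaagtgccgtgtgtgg
CCN2: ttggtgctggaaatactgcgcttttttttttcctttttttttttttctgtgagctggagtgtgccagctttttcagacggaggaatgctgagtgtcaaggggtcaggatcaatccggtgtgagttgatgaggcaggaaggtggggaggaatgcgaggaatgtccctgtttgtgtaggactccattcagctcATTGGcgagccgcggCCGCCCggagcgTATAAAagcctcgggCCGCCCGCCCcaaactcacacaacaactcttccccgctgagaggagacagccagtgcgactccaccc
MT2A: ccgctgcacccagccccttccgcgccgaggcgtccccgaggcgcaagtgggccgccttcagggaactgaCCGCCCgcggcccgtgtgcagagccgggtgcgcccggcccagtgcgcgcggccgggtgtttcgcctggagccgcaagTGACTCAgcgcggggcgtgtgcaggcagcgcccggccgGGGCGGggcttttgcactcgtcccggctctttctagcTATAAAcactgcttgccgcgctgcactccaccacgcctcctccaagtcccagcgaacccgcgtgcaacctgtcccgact
ACTG1: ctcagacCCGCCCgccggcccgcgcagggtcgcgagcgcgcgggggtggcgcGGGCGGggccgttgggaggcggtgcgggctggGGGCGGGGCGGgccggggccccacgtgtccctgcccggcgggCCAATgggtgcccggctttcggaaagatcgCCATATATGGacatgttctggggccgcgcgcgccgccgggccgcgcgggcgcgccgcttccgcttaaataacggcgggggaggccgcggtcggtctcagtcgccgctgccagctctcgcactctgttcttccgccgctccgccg
THBS1: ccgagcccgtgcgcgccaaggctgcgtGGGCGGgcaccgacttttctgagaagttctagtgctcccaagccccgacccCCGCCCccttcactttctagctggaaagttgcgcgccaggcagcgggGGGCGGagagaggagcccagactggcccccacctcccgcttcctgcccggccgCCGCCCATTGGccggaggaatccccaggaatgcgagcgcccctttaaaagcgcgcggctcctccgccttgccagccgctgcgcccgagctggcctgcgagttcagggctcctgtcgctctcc

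Values for both libraries are given with the depth behind them. The depth of the NKAP KD ChIP library was estimated at 0.857 times that of the control one, and its peaks were called at 0.793 times that depth. The part of depth in the differences that follow was not tested. At the summit of the median broad peak lay 72 reads in NKAP KD cells and 75 in control cells, against 19 in NKAP KD and 18 in control cells over all peaks, so the broad peaks were among the best sampled of each list. In bulk chromatin, fewer cells with Pol II on a stretch and less Pol II per cell cannot be told apart. Genes defining other cell types lay outside the broad peaks. No broad peak of either list touched a gene of the hepatocyte, neuron, lymphocyte or keratinocyte lists (10 genes each). Among their defining markers, 0 of 6 hepatocyte, 5 of 6 neuron, 1 of 6 lymphocyte and 1 of 6 keratinocyte genes had any NKAP KD peak, against 0, 6, 1 and 1 of 6 with a control peak. Of 7 osteoblast and mesenchyme markers, 6 had a peak in each list, and COL1A2 had none. None of the 7 had a broad peak. The planned markers were 8, and the remaining one, VIM, was in none of the gene lists. VIM lay under a broad peak in both libraries, and its locus had 5919 bp covered in NKAP KD and 8417 bp in control cells.

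Broad peaks were 0.569% of all peaks in the NKAP KD list and 1.24% in the control list. They held 1104 kb, or 4.62% of the covered bases, in NKAP KD cells, and 3332 kb, or 8.63%, in control cells. NKAP KD cells thus had 0.333 times as many broad peaks, and the ratio was 0.725 for peaks of at least 500 bp, 0.402 at 2000 bp, 0.354 at 3000 bp, 0.367 at 6000 bp, 0.273 at 10000 bp, 0.394 at 12000 bp and 0.4 at 20000 bp, the last from 2 NKAP KD and 5 control peaks. The ratio was thus lower at 2000 bp and above than at 500 bp, with no steady fall among the wider peaks. Once over 5000 bp, the peaks were alike in size: the median width was 6472 bp in NKAP KD and 6435 bp in control cells, and the widest measured 21949 bp in NKAP KD and 24732 bp in control cells. The median fold enrichment of the summit over the background, as the authors' peak caller gave it, was 24.0 in the NKAP KD list and 24.8 in the control list. Width chose these peaks, so their number and size are a description. The peaks nearest the limit were at SEC14L1 (4995 bp, outside) and PDLIM7 (5005 bp, inside) in the NKAP KD list, and a stretch without a protein-coding gene (4996 bp, outside) and KRT80 (5007 bp, inside) in the control list.

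Nearly all sequence under the broad NKAP KD peaks was also under control peaks, and the reverse held for less of it. Control peaks covered 96.2% of the bases of the broad NKAP KD peaks, and NKAP KD peaks covered 71.0% of the bases of the broad control peaks. For narrower peaks these shares were 83.7% of the NKAP KD bases and 50.4% of the control bases. Of the 150 broad NKAP KD peaks, 79 lay wholly under control peaks and 1 was covered over less than 50% of its length (0.667%, 95% Wilson interval 0.118 to 3.68). Over all NKAP KD peaks the share covered below 50% was 23.5%. Of the 450 broad control peaks, 8 lay wholly under NKAP KD peaks and 89 were covered over less than 50% of their length (19.8%, 16.4 to 23.7), against 58.7% of all control peaks. These intervals cover counting error only. Broad peaks were therefore more often found again in the other library than the average peak of their list. Wider peaks were also stronger. Over all peaks the Spearman correlation of fold and width was 0.70 in the NKAP KD and 0.74 in the control list. The part of peak strength in this was not tested.

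**Figure D1:**
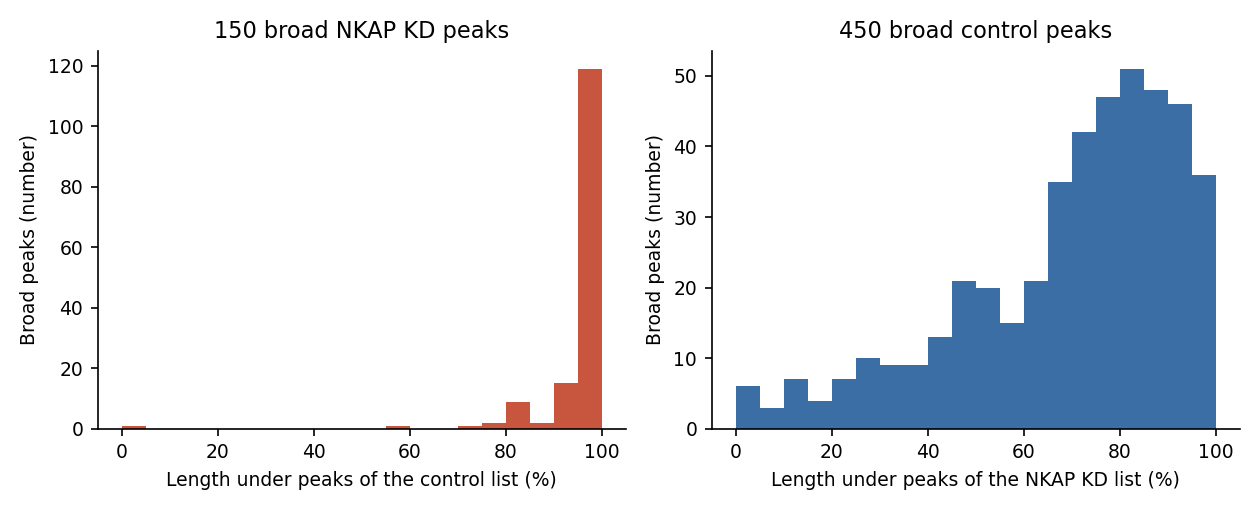
Share of each broad peak lying under peaks of the other list (x axis, percent of its length), as the number of broad peaks (y axis) in bins of 5%. Left, the 150 broad NKAP KD peaks, nearly all at the right edge; right, the 450 broad control peaks, spread widely below it.

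Where the control library had a single broad peak, the NKAP KD library often had several shorter ones. At least 2 NKAP KD peaks lay over 322 of 450 broad control peaks (71.6%, 67.2 to 75.5; 6.74% of all control peaks), and at least 2 control peaks over 39 of 150 broad NKAP KD peaks (26.0%, 19.6 to 33.6; 3.23% of all NKAP KD peaks). Wide peaks have more room for several others, so these shares are not compared with those of all peaks. The most pieces were 11 NKAP KD peaks over the control peak at PMEPA1, an inhibitor of TGF-beta signalling. No NKAP KD peak lay over 5 broad control peaks (45.8% of all control peaks), and no control peak over 1 broad NKAP KD peak (17.2% of all NKAP KD peaks). In broad control peaks 964.6 kb had no NKAP KD peak. Of this, 60.9% lay at their edges, 35.8% between NKAP KD pieces and 3.34% in the 5 peaks with none.

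Overlapping broad peaks of both lists were joined into 469 loci, and the bases under any peak of each library were counted in each. Of these, 125 were broad in both libraries, 22 in NKAP KD only and 322 in control only. In the 125 shared loci the NKAP KD peaks covered 1098 kb and the control peaks 1228 kb, a ratio of 0.894, with less coverage in NKAP KD cells at 106 loci and more at 19. In the 322 control-only loci the NKAP KD peaks covered 1314 kb and the control peaks 2128 kb, and in the 22 NKAP KD-only loci the NKAP KD peaks covered 129.7 kb and the control peaks 107.9 kb. These last 2 directions follow from how the loci were chosen. Over all 469 the median log2 ratio of NKAP KD to control coverage was −0.36, with 500 bp added to each. The highest read count at a peak summit was divided by the estimated depth. Its median NKAP KD to control ratio was 0.849 in the shared loci, 1.12 in the NKAP KD-only loci and 0.789 in the control-only loci. Loci without a peak in 1 library were left out, so these medians rest on 125, 21 and 317 loci.

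**Figure D2:**
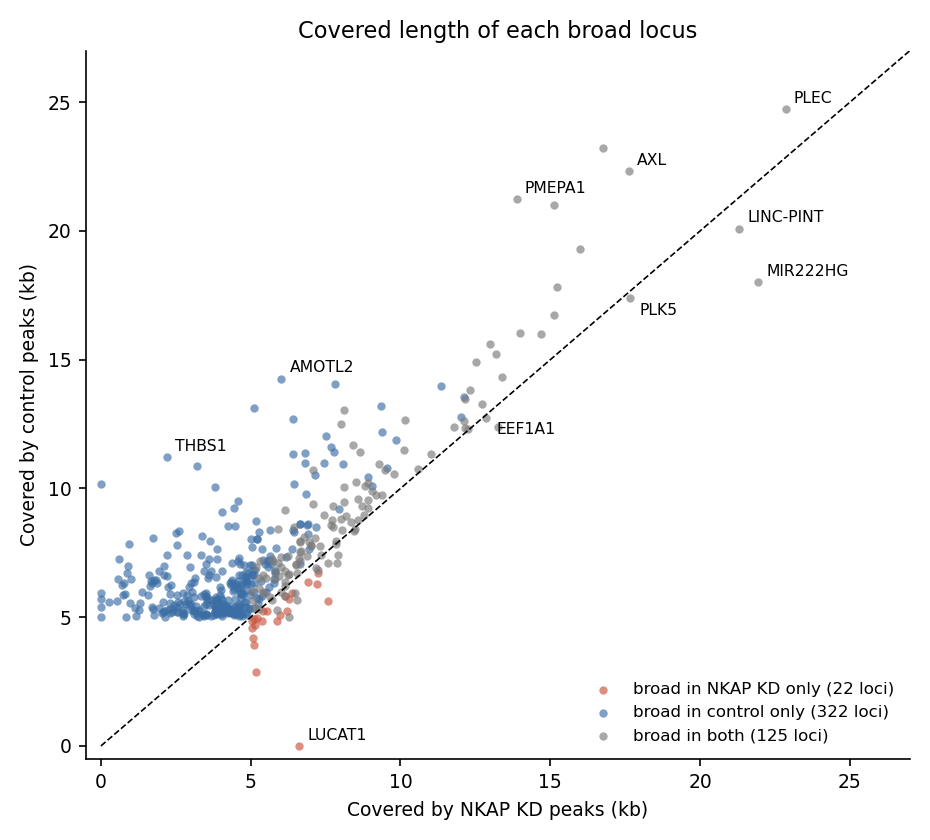
Bases under any NKAP KD peak (x axis, kb) and under any control peak (y axis, kb) in each of the 469 broad loci, coloured by the library in which the locus was broad. The dashed line marks equal coverage; most grey points of the 125 shared loci lie just above it, and THBS1 and AMOTL2 lie far above it.

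Broad peaks were found mainly on and around protein-coding genes. At least 1 gene start lay inside 78 of 150 broad NKAP KD peaks (52.0%, 44.1 to 59.8) and 182 of 450 broad control peaks (40.4%, 36.0 to 45.0). The share was 27.3% for the narrower NKAP KD peaks and 21.3% for the narrower control peaks. A wide peak has more room for a start, which favours the broad peaks in this comparison. With the width limit at 3000 bp the shares were close, 44.8% in NKAP KD and 43.9% in control cells. A start needs its strand, which was known for 15812 of 19974 protein-coding genes. On genes with a known strand, 34 NKAP KD and 58 control broad peaks ran over both the start and the end, and 35 NKAP KD and 94 control peaks over the start but not the end. Another 15 NKAP KD and 65 control peaks ran over the end but not the start, and 11 NKAP KD and 76 control peaks lay inside the gene. For 28 NKAP KD and 80 control peaks the strand was not used, and 27 NKAP KD and 77 control peaks touched no protein-coding gene. Peaks inside genes were thus 7.33% (4.14 to 12.7) of the broad NKAP KD peaks and 16.9% (13.7 to 20.6) of the broad control peaks. The summit lay within 1000 bp of the start in 59 of 95 NKAP KD peaks (62.1%, 52.1 to 71.2) and 125 of 293 control peaks (42.7%, 37.1 to 48.4). It lay more than 1000 bp into the gene in 32 NKAP KD peaks (33.7%) and 157 control peaks (53.6%). Peaks inside genes and summit positions were counted only at the 5000 bp limit. That limit took 0.569% of all NKAP KD peaks and 1.24% of all control peaks.

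The start was the best kept part of a broad control peak. NKAP KD peaks covered 91.0% of its bases within 1000 bp of a start, 66.6% in gene bodies, 75.8% in the 5000 bp past an end and 68.7% elsewhere. By class, the control peaks over a whole gene kept 83.8% of their bases and those inside genes 58.1%, and 0 of 58 and 28 of 76 were covered over less than 50% of their length. Control peaks covered 99.6%, 97.1%, 98.5% and 92.3% of the bases of the broad NKAP KD peaks in the same order of places. Around the starts of the 152 control peaks with a start inside, NKAP KD peaks covered 98.3% of the bases in the first 500 bp, all of which lay under control peaks. Between 2000 and 2500 bp NKAP KD peaks covered 68.6% and control peaks 91.3%, and between 5000 and 5500 bp NKAP KD peaks covered 42.4% and control peaks 66.4%. Upstream, between 1000 and 1500 bp before the start, NKAP KD peaks covered 47.8% and control peaks 77.1%. The NKAP KD edge lay inside the control edge by a median of 363.5 bp on the start side and 380.5 bp on the end side. These peaks were chosen for their width in the control library, which favours less coverage in NKAP KD cells on both sides of the start.

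**Figure D3:**
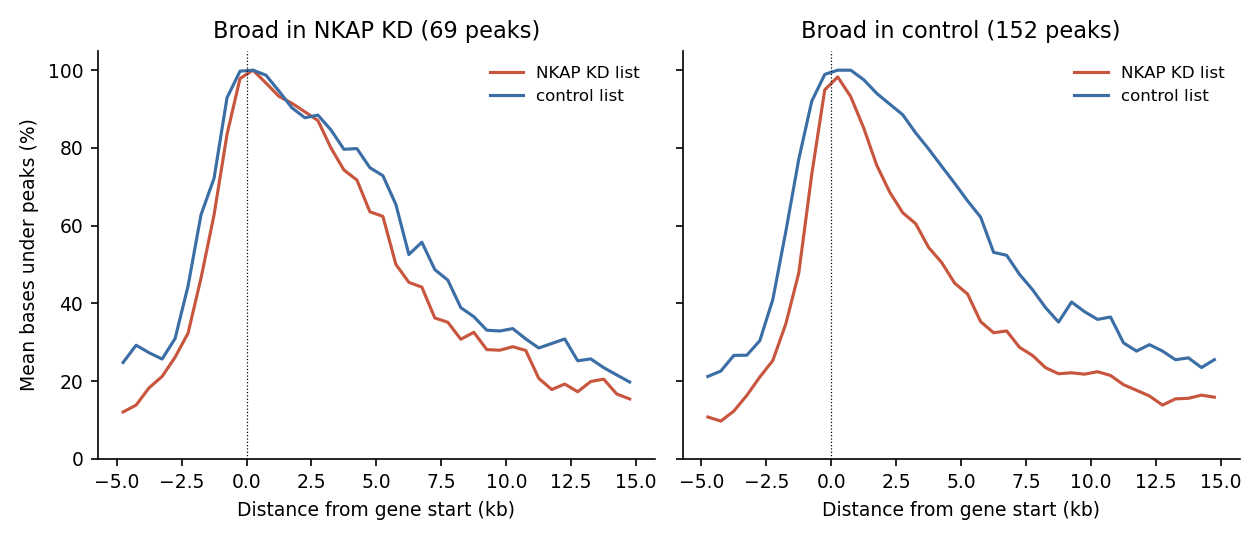
Mean share of bases under peaks (y axis, percent) against the distance from the gene start along the strand (x axis, kb, bins of 500 bp) for NKAP KD and control peaks. Left, at the 69 broad NKAP KD peaks with a start inside, where the curves run close together around the start and the control curve lies higher further out. Right, at the 152 such control peaks, where the NKAP KD curve meets the control curve only near the start.

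Broad peaks touched 177 of 19974 protein-coding genes in NKAP KD cells (0.886%) and 540 in control cells (2.70%), counting genes with 1000 bp on either side. Of these genes 154 were touched in both, 23 in NKAP KD only and 386 in control only (1.93% of all genes). Of the 563 genes touched in either, 487 had less coverage in NKAP KD cells and 37 more, with a median log2 ratio of NKAP KD to control coverage of −0.41. Most entered through a broad control peak alone, which favours that direction. Coverage of a gene was counted within its window of 1000 bp on either side, so a gene lying wholly under peaks reaches a ceiling and peaks running further are not seen. For this reason the bases under peaks in the broad loci over each list are given as well. These loci are not cut at the gene window, but they end where their broad peaks end. A locus broad in a single library thus lies wholly under peaks of that library, and the other library can have no more coverage there. The gene lists below were chosen with earlier results of these data known, so their counts describe the 2 libraries. A broad peak can touch neighbouring genes, and a wide gene has more room for one.

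**Figure D4:**
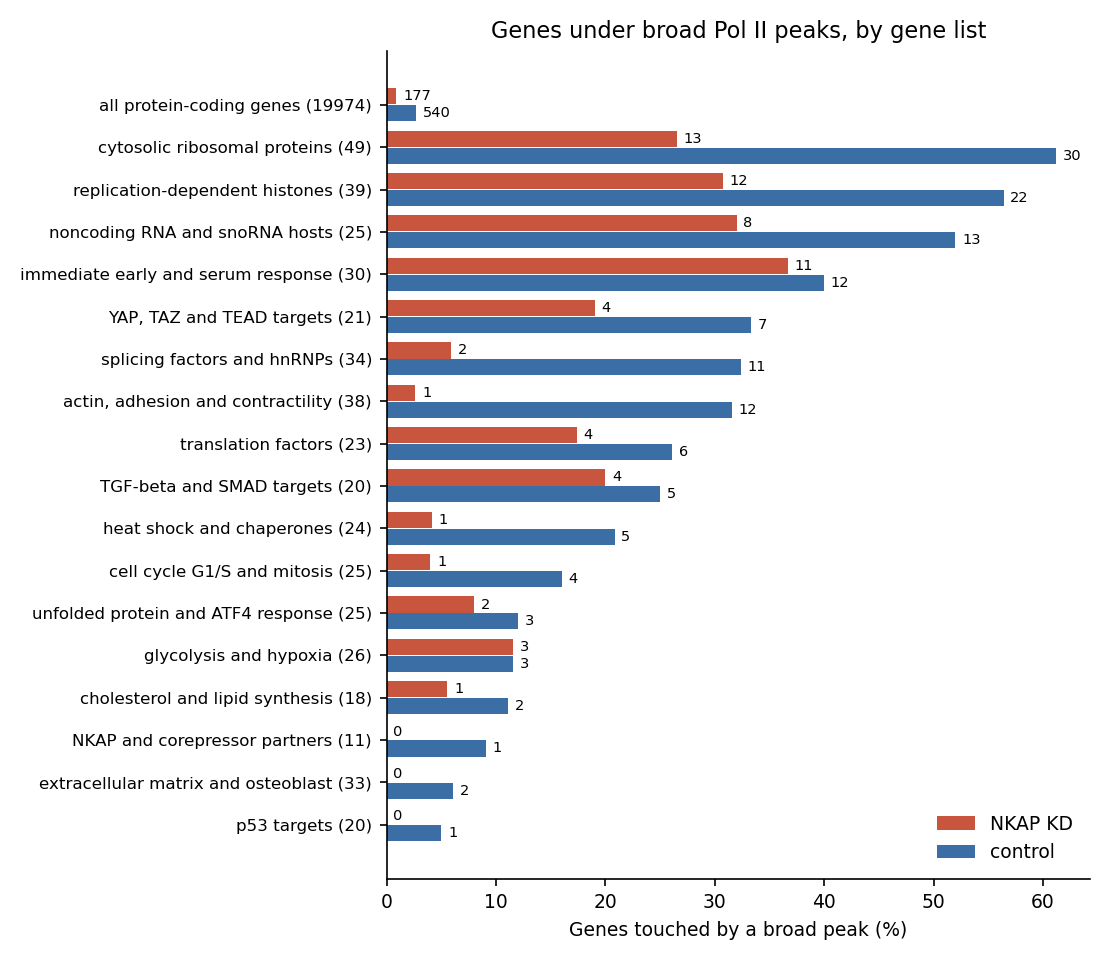
Share of the genes of each list touched by a broad peak (x axis, percent; the number touched at each bar) in NKAP KD and control cells, with the size of each list in brackets. The actin, adhesion and contractility list has 1 gene against 12, and the immediate early list 11 against 12.

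Genes of actin, adhesion and contractility had 1 of 38 members under a broad NKAP KD peak and 12 of 38 under a broad control peak. With peaks of at least 3000 bp the counts were 10 in NKAP KD and 24 in control cells, a ratio of 0.417. Each of the 12 had less coverage in NKAP KD cells, with a median log2 ratio of −1.55, and 11 of them had been chosen through a broad control peak alone. The 17 broad loci over these genes had 77.4 kb under NKAP KD peaks and 135.5 kb under control peaks. The list held EZR and MYH9, known from earlier results of these data to be less covered; without them the counts were 1 in NKAP KD and 10 in control cells. ANXA2, a calcium-dependent membrane and actin binder, was the member broad in both, with peaks of 11390 bp in NKAP KD and 21022 bp in control cells. The locus at ACTB, which encodes beta-actin, had 9365 bp covered in 3 NKAP KD peaks and 13209 bp in 1 control peak. FLNA, the actin crosslinker filamin A, had 6717 bp covered in NKAP KD cells and 23732 bp in control cells, and the gene is 26104 bp long. TPM1, a tropomyosin that stabilises actin filaments and a gene named after its values were seen, had 2965 bp in NKAP KD and 13639 bp in control cells.

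In the extracellular matrix and osteoblast list, 0 of 33 genes had a broad NKAP KD peak and 2 had a broad control peak. THBS1, which encodes the adhesive glycoprotein thrombospondin 1, had 2463 bp covered in 2 peaks in NKAP KD cells and 18712 bp in 5 peaks in control cells. The NKAP KD coverage lay mainly at the start, and the highest summit had 55 reads in NKAP KD and 137 in control cells. The broad control peak over the gene's end was 5609 bp wide, of which NKAP KD peaks covered 267 bp. LOXL2, a collagen-crosslinking enzyme, had 7223 bp covered in NKAP KD cells and 10840 bp in control cells.

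Among targets of the Hippo effectors YAP and TAZ, 4 of 21 genes had a broad NKAP KD peak and 7 a broad control peak, with a median log2 ratio of coverage of −0.63. AMOTL2, an angiomotin family gene, had 7284 bp covered in 12 peaks in NKAP KD cells and 20412 bp in 4 peaks in control cells, the largest of them 14266 bp wide. AXL, a receptor tyrosine kinase, had peaks of 6733 bp at most in NKAP KD cells, against 22333 bp in control cells. The locus at CCN1, a secreted matricellular protein, had 9272 bp covered in 2 NKAP KD peaks and 10943 bp in 1 control peak. The locus at GADD45A, a stress sensor, had 6161 bp in 2 NKAP KD peaks and 9182 bp in 1 control peak. In the TGF-beta and SMAD list, 4 of 20 genes had a broad NKAP KD peak and 5 a broad control peak. Its widest was at PMEPA1, with 15528 bp covered in 14 NKAP KD peaks and 34765 bp in 16 control peaks.

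**Figure D5:**
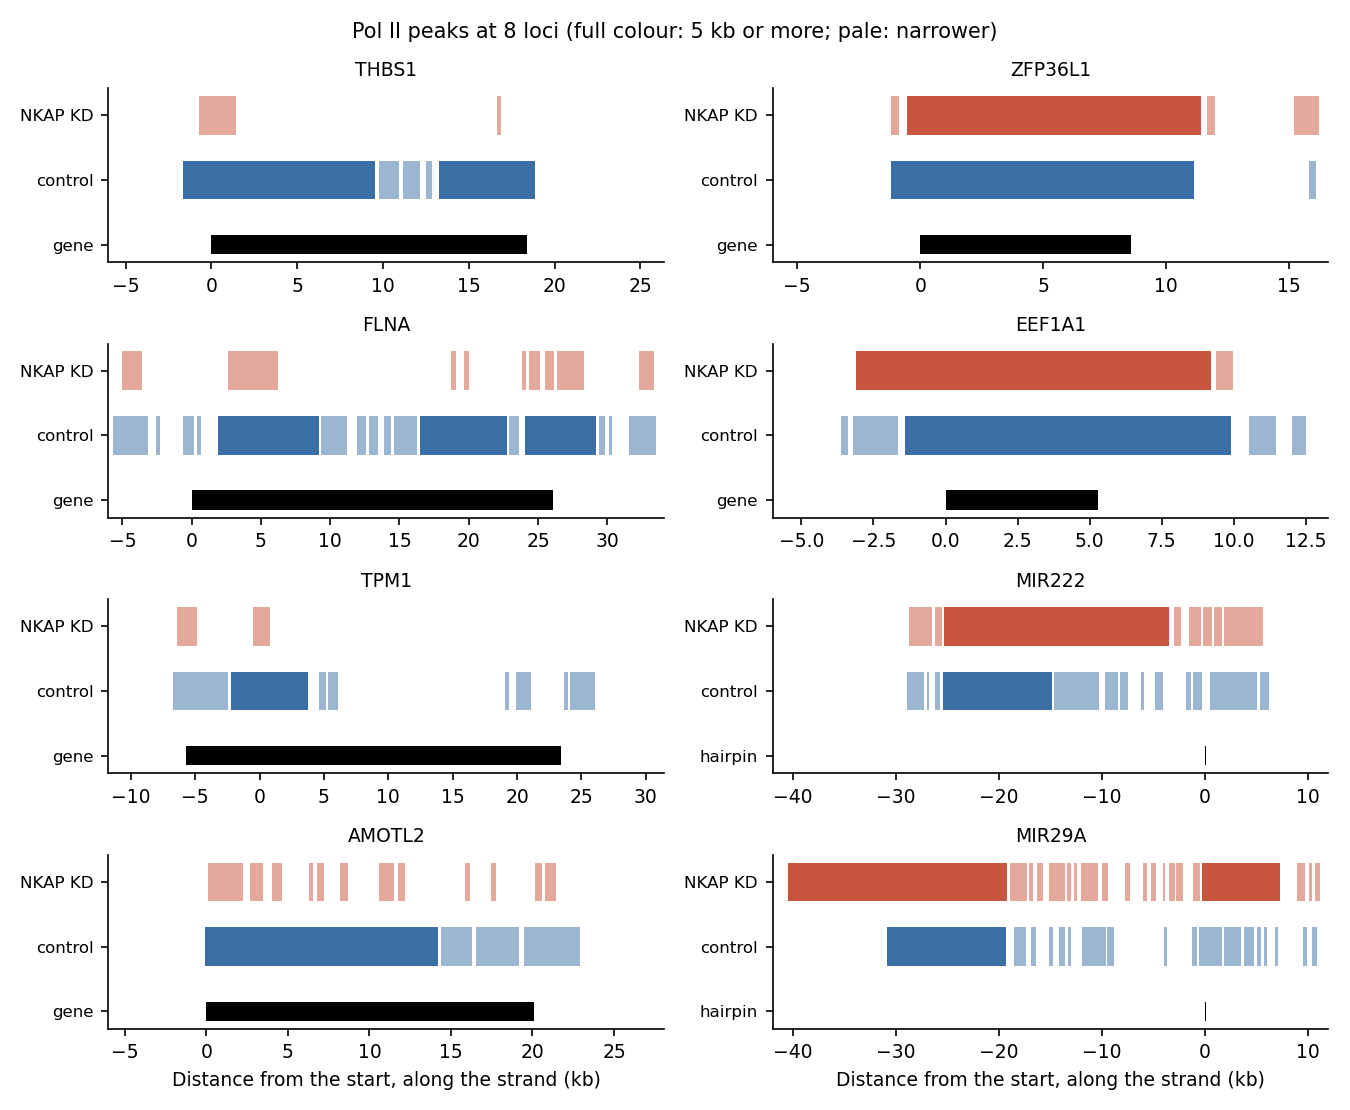
Peaks of the NKAP KD library (upper row of each panel) and the control library (middle row) at 8 loci, against the distance from the start along the strand (x axis, kb; for TPM1 the start is one inside the gene), with the gene or hairpin as a black bar. Full colour marks peaks of 5000 bp or more and pale colour narrower ones; no broad NKAP KD peak touches THBS1, FLNA, TPM1 or AMOTL2, while ZFP36L1 and EEF1A1 are broad in both.

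The immediate early and serum response genes had 11 of 30 under a broad NKAP KD peak and 12 of 30 under a broad control peak, 10 of them in both. Their median log2 ratio of coverage was −0.04, with less in NKAP KD cells at 8 genes and more at 3, and 3 NKAP KD and 6 control genes were at the ceiling. The 14 broad loci over these genes had 102.1 kb under NKAP KD peaks and 120.4 kb under control peaks, with less in NKAP KD cells at 11 loci. FOSL1, an AP-1 subunit, had a single NKAP KD peak of 13269 bp, where the widest control peak measured 5782 bp. In coverage this locus had 13269 bp in NKAP KD cells and 12378 bp in 5 peaks in control cells. The locus at ZFP36L1, which promotes decay of AU-rich messenger RNAs, had 12245 bp covered in NKAP KD and 12319 bp in control cells. FOSL2, an AP-1 subunit with a much longer gene, was an exception, with 9915 bp in 11 NKAP KD peaks and 25740 bp in 4 control peaks. The summit counts were lower in NKAP KD cells at CCN1, with 143 reads against 206 in control cells.

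Genes of the protein synthesis machinery often lay under broad peaks. Of 49 cytosolic ribosomal protein genes, 13 had a broad NKAP KD peak and 30 a broad control peak, all 13 being among the 30. Their median log2 ratio of coverage was −0.07, with 2 NKAP KD and 15 control genes at the ceiling. The 29 broad loci over these genes had 203 kb under NKAP KD peaks and 240.7 kb under control peaks, and each of the 29 had less in NKAP KD cells. Of the 30 genes, 17 had been chosen through a broad control peak alone, which favours that direction. The locus at RPS19, a small subunit protein, had 14700 bp covered in NKAP KD and 15989 bp in control cells. RPL13A, a large subunit protein, had a peak of 8095 bp in NKAP KD cells and 16029 bp in control cells. Of 23 translation factor genes, 4 had a broad NKAP KD peak and 6 a broad control peak. EEF1A1, the elongation factor that brings aminoacyl-tRNA to the ribosome, had the highest fold of the broad NKAP KD peaks, 77.9, in a peak of 12321 bp, against 49.4 in a control peak of 11312 bp. Its highest summit nonetheless had fewer reads in NKAP KD cells, 158, against 196 in control cells.

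Splicing factor and hnRNP genes had 2 of 34 members under a broad NKAP KD peak and 11 under a broad control peak, and all 11 had less coverage in NKAP KD cells (median log2 ratio −0.62), 9 of them chosen through a broad control peak alone. With peaks of at least 3000 bp the counts were 7 in NKAP KD and 22 in control cells. The locus at HNRNPA1, an hnRNP protein that regulates splice site choice, had 10147 bp covered in 2 NKAP KD peaks and 12677 bp in 1 control peak. SRSF3, an SR protein, had 7670 bp in 7 NKAP KD peaks and 11766 bp in 6 control peaks. HNRNPA2B1, an hnRNP protein of RNA transport, had 9082 bp in NKAP KD and 12309 bp in control cells. Its broad NKAP KD peak, 6522 bp wide, lay in the locus assigned to the neighbouring gene NFE2L3. The locus assigned to HNRNPA2B1 itself was broad in control cells only. Among heat shock and chaperone genes, 1 of 24 had a broad NKAP KD peak and 5 a broad control peak. CALR, which encodes the chaperone calreticulin of the endoplasmic reticulum, had 1661 bp covered in NKAP KD and 7419 bp in control cells. The locus at HSP90AB1, a cytosolic HSP90, had 12021 bp in NKAP KD and 12782 bp in control cells.

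Replication-dependent histone genes, short intronless genes in clusters, had 12 of 39 members under a broad NKAP KD peak and 22 of 39 under a broad control peak. The 11 broad loci over them had 76.5 kb under NKAP KD peaks and 89.8 kb under control peaks. A peak here often held several genes, such as the peak over H4C14, H3C14 and H2AC18, which was 12715 bp wide in NKAP KD cells and 15609 bp wide in control cells, where it also reached H4C15. Reads from near-identical histone genes may be shared between copies. The control peak had the highest fold of all broad peaks, 96.1, against 48.2 for the NKAP KD peak. Of the smaller groups, glycolysis and hypoxia genes had 3 of 26 touched in each library. ENO1, the glycolytic enzyme enolase, had 17052 bp covered in 8 NKAP KD peaks and 19281 bp in 3 control peaks. Of 25 genes of the unfolded protein and ATF4 response, 2 had a broad NKAP KD peak and 3 a broad control peak. PPP1R15A, a phosphatase subunit that lets translation recover after stress, was broad in NKAP KD cells only, and its locus had 7254 bp in 1 NKAP KD peak and 6699 bp in 4 control peaks. Cell cycle genes had 1 of 25 touched in NKAP KD and 4 in control cells, cholesterol and lipid synthesis genes 1 of 18 in NKAP KD and 2 in control cells, and p53 targets 0 of 20 in NKAP KD and 1 in control cells. Of 11 genes of NKAP and its corepressor partners, 0 had a broad NKAP KD peak and 1 a broad control peak. The Notch pathway, Pol II and elongation factor, and methionine cycle lists had no broad peak in either library.

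Long noncoding RNA genes carried the widest broad peaks of the NKAP KD library. In the list of noncoding RNA and snoRNA host genes, 8 of 25 had a broad NKAP KD peak and 13 of 25 a broad control peak. The 15 broad loci over them had 139.7 kb under NKAP KD peaks and 152.3 kb under control peaks. The widest NKAP KD peak, 21949 bp, lay over MIR222HG, the host gene of miR-221 and miR-222, at chrX:45750561-45772509 (hg38). Control peaks covered 82.1% of it in 6 pieces, the widest being 10520 bp. The next, 21303 bp, lay over LINC-PINT, a p53-induced noncoding RNA, where the widest control peak measured 11516 bp. In coverage over the whole LINC-PINT gene the NKAP KD library had 37966 bp and the control library 32504 bp. SNHG3, a snoRNA host at the RCC1 locus, had peaks of 15111 bp in NKAP KD and 16720 bp in control cells. NEAT1, the scaffold of paraspeckles, had 15554 bp covered in NKAP KD cells and 15304 bp in control cells.

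Of 1558 microRNA hairpins, 8 lay inside a broad NKAP KD peak and 24 inside a broad control peak, 7 of them in both. The eighth, MIR29A, lay inside a NKAP KD peak of 7565 bp near LINC-PINT, of which 6 control peaks covered 5617 bp. The highest summit there had 30 reads in NKAP KD and 20 in control cells. The hairpin of miR-29b-1 was 377 bp outside this peak. The hairpins of miR-222 and miR-221 were 3437 and 4295 bp from the nearest broad NKAP KD peak and 14879 and 15737 bp from the nearest broad control peak. The hairpin of miR-21, an abundant microRNA of many tumours, lay inside both, in peaks of 11032 bp in NKAP KD and 11321 bp in control cells. The mature sequences of these microRNAs, which show the seeds they share, are from RefSeq (GRCh38.p14), with the seed, bases 2 to 8, in capitals. miR-221-3p and miR-222-3p share a seed, and so do miR-29a-3p and miR-29b-3p.
hsa-miR-221-3p: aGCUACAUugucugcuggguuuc
hsa-miR-222-3p: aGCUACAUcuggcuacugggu
hsa-miR-29a-3p: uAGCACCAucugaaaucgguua
hsa-miR-29b-3p: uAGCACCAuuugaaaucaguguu
hsa-miR-21-5p: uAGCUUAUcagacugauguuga

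The loci on the NKAP KD side were few, and most had nearly equal coverage. The single broad NKAP KD peak without a control peak was 6605 bp wide over LUCAT1, a stress-responsive long noncoding RNA, at chr5:91300132-91306736 (hg38). Its summit had 25 reads and a fold of 8.05, and the nearest protein-coding gene, ARRDC3, was 61895 bp away. A stretch 15585 bp from DUSP5, a phosphatase that restrains ERK signalling, had 5185 bp covered in NKAP KD and 2890 bp in control cells. A stretch 23280 bp from PCNX1 had 5097 bp in NKAP KD and 3931 bp in control cells. PHC2, a Polycomb group gene, had a broad peak in both, of 6274 bp in NKAP KD and 5010 bp in control cells. Other genes of this side, named after their values were seen, were MT2A, a metallothionein, with 5995 bp covered in NKAP KD and 5089 bp in control cells, and HMGA2, a chromatin architectural protein, with 6548 bp in NKAP KD and 5674 bp in control cells.

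The loci furthest on the control side included stretches without any NKAP KD peak. The widest was 10169 bp over ZNF45-AS1, with 61 reads at its summit, 9076 bp from the zinc finger gene ZNF404. The others lay in TCP11L1 (5958 bp, 39 reads), in SHOC1 (5703 bp, 32 reads), near CTAG1A (5390 bp, 39 reads) and in KRT80, a keratin gene (5007 bp, 27 reads). Among the widest control peaks, PLEC, the cytoskeletal linker plectin, had 24732 bp, of which NKAP KD peaks covered 92.4% in 5 pieces, and AXL had 22333 bp, of which they covered 78.9% in 9 pieces.

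Promoters under broad peaks held the TATAAA motif more often than all promoters of the table. It was found on either strand of the 300-base window in 27 of 99 promoters whose start lay in a broad NKAP KD peak (27.3%), 49 of 236 in a broad control peak (20.8%) and 9.64% of all 15812. With histone genes left out it was in 20.2% of 84 under broad NKAP KD peaks, 12.6% of 207 under broad control peaks and 9.38% of all 15727. The GGGCGG motif was in 70.7% of the promoters under broad NKAP KD peaks, 70.8% of those under broad control peaks and 58.5% of all. For CCAAT the same 3 shares were 43.4%, 45.3% and 36.3%, for TGACTCA 4.04%, 5.08% and 3.67%, and for the CArG box 1.01%, 2.97% and 1.21%. With histone genes left out GGGCGG was in 63 of 84 promoters under broad NKAP KD peaks, 75.8% of those under broad control peaks and 58.6% of all, and the shares in the same order were 36.9%, 39.6% and 36.0% for CCAAT, 4.76%, 5.80% and 3.68% for TGACTCA, and 1.19%, 2.42% and 1.20% for the CArG box. The CArG box count was 1 promoter under a broad NKAP KD peak and 7 under a broad control peak, or 1 and 5 with histone genes left out, among them ACTG1, shown above. These are letter matches in a window and not sites of binding, and promoters on chromosomes 1 to 22 and X with several overlapping genes are not independent.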

How the data were processed

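Pol II ChIP peaks of 1 NKAP KD and 1 control library were analysed. The submitters' processing notes list MACS2 2.1.0, Bowtie 1.1.2, Trimmomatic 0.33 and bcl2fastq 2.17, with build hg38. Neither the settings nor the library taken as background is stated there. The authors called peaks per library. Each deposited row gave start and end, a score (10 times the −log10 q without decimals), the fold enrichment of the summit over background, and −log10 p and −log10 q values. The lists end at −log10 q of 3.02 (NKAP KD) and 3.01 (control), so a stretch without a peak may hold Pol II below that threshold, and a peak's width depends on depth.

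Reads at each summit were recovered from fold and p. This gave whole reads within 0.01 of a read for 26386 of 26387 NKAP KD and 36345 of 36345 control peaks. Relative depth was estimated from the most common low background recovered in each list. That background was divided by the width of the narrowest peak, 225 bp in NKAP KD and 229 bp in control, taken as the fragment length. The library depth was further divided by the weight of 1 NKAP KD read. The recovery of reads was tested on simulated data in which each read counted as 1, as in the control list. The simulated counts stopped below the highest of either list. The NKAP KD setting, where a read counted as 0.926, and the depth estimate were not simulated. Broad peaks were compared by bases under the other list's peaks, with 1 bp taken as overlap. Shares have 95% Wilson intervals. Gene positions were those of RefSeq (GRCh38.p14), and strand and start from its promoter table. No test between conditions was made. Python 3.11.15, numpy 2.4.6, pandas 2.3.3 and scipy 1.17.1 were used.

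The members, gene lists and alternatives were chosen with earlier results of these data known. Named genes were those of the 10 widest and the 10 least covered broad peaks of each list, the 5 of highest fold, the 5 loci of largest and smallest coverage ratio, the 5 widest without a gene within 5000 bp, the 4 per gene list with the widest broad peaks, the 3 peaks on each side of 5000 bp, and NKAP. TPM1, MT2A, HMGA2 and the genes shown for their promoters or microRNAs outside this rule were chosen after their values were seen. Some genes that the rule names are not reported here.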

Additional observations from a re-analysis of the deposited data

Results flagged for a closer look

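Broad peaks were also called outside chromosomes 1 to 22 and X, in data the comparisons did not use. The remaining sequences held 6 broad peaks in the NKAP KD list and 16 in the control list, among 1526 and 2218 peaks. The widest measured 13533 bp in the NKAP KD list and 9128 bp in the control list.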

How the results depend on the processing

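No paired analysis was possible because each condition had 1 ChIP library and no result comes from a test. Over the alternatives, 57 values stayed close to those reported and 29 moved. For most values, close meant inside the 95% Wilson interval of the reported one. For the gene lists and the loci a fixed limit on the change was used. The actin value without EZR and MYH9 was counted as close without applying this limit. A change of direction was looked for only in the number and covered length of broad peaks, and none was found. These 2 could not change under the q filters or with equal numbers of strongest peaks, because every broad peak passed. With equal numbers the NKAP KD list also stayed whole. The shares of broad control peaks and bases covered or met by NKAP KD peaks could therefore not change either. Part of the 57 close values was thus fixed in advance. In the noncoding list the genes touched went from 8 in NKAP KD and 13 in control cells to 16 in each at 3000 bp. Values below are the NKAP KD value, the control value or their ratio, as named. The cause of the moves was not tested.

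With a width of at least 10000 bp, NKAP KD cells had 0.273 times as many broad peaks; 0% of NKAP KD and 9.09% of control broad peaks were covered over less than 50% of their length, 76.7% of control broad bases were covered, and 86.4% of control broad peaks met at least 2 NKAP KD peaks. With 3000 bp the control values were 66.5% of bases covered, 23.9% covered below 50%, and 51.0% meeting at least 2 peaks. The ratio of genes touched (NKAP KD over control) was then 0.417 in the actin list, 0.667 in the ribosomal list, 0.318 in the splicing list and 1 in the noncoding list, against 0.0833, 0.433, 0.182 and 0.615 at 5000 bp. With −log10 q of at least 10, 17.3% of NKAP KD and 41.3% of control broad peaks met at least 2 peaks, 63.9% of control broad bases were covered, and 28.9% of control broad peaks were covered below 50%. This filter drops whole peaks and leaves widths as they were, and the broad peaks themselves all passed it.

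With peaks within 500 bp joined, 5.63% of NKAP KD and 32.7% of control broad stretches were covered below 50%, 16.2% and 50.9% met at least 2 peaks, and 62.6% of control broad bases were covered. With 1000 bp these were 4.58% and 40.5%, 12.6% and 40.3%, and 57.7%, and 45.9% of control broad stretches had a gene start inside. At limits of 25% and 75% of the length, 6.0% and 49.3% of broad control peaks lay below. The actin list without EZR and MYH9, an alternative chosen after seeing the data, gave 0.1. Depth limits what a missing peak shows: the NKAP KD library was estimated to be shallower, and the lists hold no signal below the threshold.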
